A study of Rattus norvegicus with 9 samples.

Results

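Cytosolic ribosomal protein genes were followed in ADSCs, the stromal cells of rat adipose tissue that adhere to plastic and belong to the mesenchymal lineage. Members were chosen by symbol alone, as Rpl or Rps followed by a number with an optional suffix, or as Rplp0, Rplp1, Rplp2 or Rpsa. The rule found 88 of the 21923 genes in the table, and 79 of these had enough counts to be tested. Vivo cells were passage 4 ADSCs placed by injection in the fat of nude mice and recovered 7 days later. Vitro cells were passage 4 ADSCs kept in ordinary culture and harvested alongside the Vivo cells. Con cells were ADSCs taken at passage 4. Cells of all 3 groups came from collagenase-digested inguinal fat of GFP-transgenic rats and had been cultured in DMEM/F12 medium supplemented with 10% serum. Each group had 3 RNA-seq libraries of poly(A)-selected RNA, and the labels do not say whether these came from separate animals or cultures. The p-values therefore rest on differences among libraries of a group that may be no more than technical.

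The ribosome translates mRNA into protein. Its small subunit reads the message and its large subunit joins amino acids, and each is built from ribosomal RNA and a fixed set of proteins that are made in near equal numbers. Most of the genes for these proteins are short and among the most highly expressed of any cell. Their mRNAs usually begin with a C followed by an unbroken run of C and T (U in the RNA), the terminal oligopyrimidine or TOP motif, through which mTORC1 and LARP1 control their translation, so that a level of mRNA is not a rate of protein synthesis.

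The bases around the annotated start of 11 members are printed, some with this motif at that start and some without it. Each window holds 10 bases before and 20 bases from the annotated RefSeq start on the GRCr8 assembly, 5′ to 3′ on the gene's strand, and capitals mark the unbroken run of C and T that begins at the start. The counts were made on another assembly, Rnor_6.0, and these windows were matched to members by symbol.
Rpl10, chrX:157205840-157205869, plus strand: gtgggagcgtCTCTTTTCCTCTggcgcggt
Rplp0, chr12:46718371-46718400, minus strand: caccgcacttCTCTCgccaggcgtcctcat
Rpl37, chr2:55942935-55942964, plus strand: ggcgtactttCTCTTCCggtctctttggcc
Rpl10a, chr20:6390523-6390552, plus strand: cttctgccttCTTTTCCggttcccgcagcc
Rps27, chr2:177964587-177964616, minus strand: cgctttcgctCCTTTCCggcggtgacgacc
Rpl3, chr7:113507971-113508000, minus strand: gcctgctcgaTCTCTatcggcggcgtgtgg
Rpl36, chr9:1533770-1533799, plus strand: cggccgccatCggaaagctgcaggtaagtc
Rps2, chr10:14251838-14251867, plus strand: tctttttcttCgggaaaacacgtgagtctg
Rps27l, chr8:76443648-76443677, plus strand: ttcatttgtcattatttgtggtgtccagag
Rpl22l1, chr2:113683186-113683215, plus strand: gtggatatccggttccgagttgcgcagcgc
Rpl7l1, chr9:21695708-21695737, plus strand: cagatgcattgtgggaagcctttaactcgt

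Rpl10 had the longest of the runs printed, with 12 bases. Rpl36 and Rps2 had a run of 1 base, and Rps27l, Rpl22l1 and Rpl7l1 one of 0. In Rps2 the 10 bases printed before the start were also all C or T. A run of 0 was not particular to paralogues, as Rpl11, Rpl13a and Rpl23 had it too. The windows therefore do not set the genes called below apart from other members. Promoters were matched for 65 of the 88 members, as 66 windows. A C at the annotated start that opened a run of at least 5 C or T was present in 21 of these 66 windows (31.8%) and in 881 of all 33469 RefSeq promoters (2.63%). Within the 300 bases of a promoter, from 250 before to 50 after the start, 2 other letter strings were searched on both strands. CTTTCC was found in 31 member promoters (47%), against 26.4% of all promoters. CCGGAAG, which can share its CC with the end of CTTTCC, was found in 21 member promoters (31.8%), against 8.75% of all promoters. A match describes the letters only, and an annotated start can lie some bases from the start in use.

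Levels are CPM, the counts of a gene scaled to a common library total with TMM factors, and depth was even, with 17484607 to 18355242 counts per library. Of the 88 members, 60 averaged at least 100 CPM over the 9 libraries. Another 11 lay between 10 and 100 CPM, 7 between 1 and 10 CPM and 10 under 1 CPM. Compared per length, in FPKM (fragments scaled by gene length and library total, as deposited), the 5 highest members were Rpl41 with 2513, Rplp0 with 1563, Rps18 with 1480, Rpsa with 1432 and Rps27 with 1290 FPKM, averaged over all libraries. Rpl41 encodes the smallest protein of the large subunit, Rplp0 the base of the stalk that recruits elongation factors, and Rpsa, Rps18 and Rps27 proteins of the small subunit. The order of members by FPKM was nearly the same in every library, with a Spearman rho of 0.959 to 0.996 between pairs of libraries over 78 members. This is a description, since all values of a library share its depth and each gene keeps its length. The lowest tested members were Rpl39, listed at 0 FPKM in all libraries although it had 14 to 73 counts, Rpl38 at 0.49 FPKM and Rps6 at 1.19 FPKM.

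Such low values concern rows of the table rather than the proteins, as rat ribosomal protein genes have many near-identical copies among which reads can be split. The table held 186 further rows described as a ribosomal protein under provisional or pseudogene symbols, called copies here. They had 617321 counts, or 10.1% of the 6094553 counts of the members. For L13, L22, L36a, P1 and S19, named below, such a row was the main row of the protein. The 10.1% is therefore not a share of split reads alone. Rplp2, a stalk protein, had 0 to 3 counts per library, while its P2-like row (LOC498555) had 1436 to 2577. Rpl37 had 1 to 48 counts and its L37-like row (LOC100360781) 1078 to 2544. Rpl13, Rpl22, Rpl36a, Rplp1, Rps19 and Rps26 were not analysed here under these symbols, and for L13, L22, L36a, P1 and S19 a copy row held most of the counts. With copies added together, 66 of 85 proteins reached 100 CPM.

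One library stood apart, as was already known from earlier results of these data. Members took 3.74% (95% Wilson interval 3.73 to 3.74), 3.76% (3.75 to 3.77) and 6.26% (6.25 to 6.27) of all counts in Vivo replicates 1, 2 and 3. The share was 3.38% (3.37 to 3.38), 3.17% (3.16 to 3.17) and 3.07% (3.06 to 3.08) in Vitro replicates 1, 2 and 3, and 3.77% (3.76 to 3.78), 3.58% (3.57 to 3.58) and 3.36% (3.35 to 3.37) in Con replicates 1, 2 and 3. Vivo replicates 1 and 2 lay within the Con range, Vivo replicate 3 lay far above every other library, and Vitro replicates 2 and 3 lay below every other library. The median member, relative to its Con mean, stood at -0.01 and -0.01 in Vivo replicates 1 and 2 and at 0.81 in Vivo replicate 3 on the log2 CPM scale. It stood at -0.05, -0.28 and -0.29 in Vitro replicates 1 to 3.

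**Figure D1:**
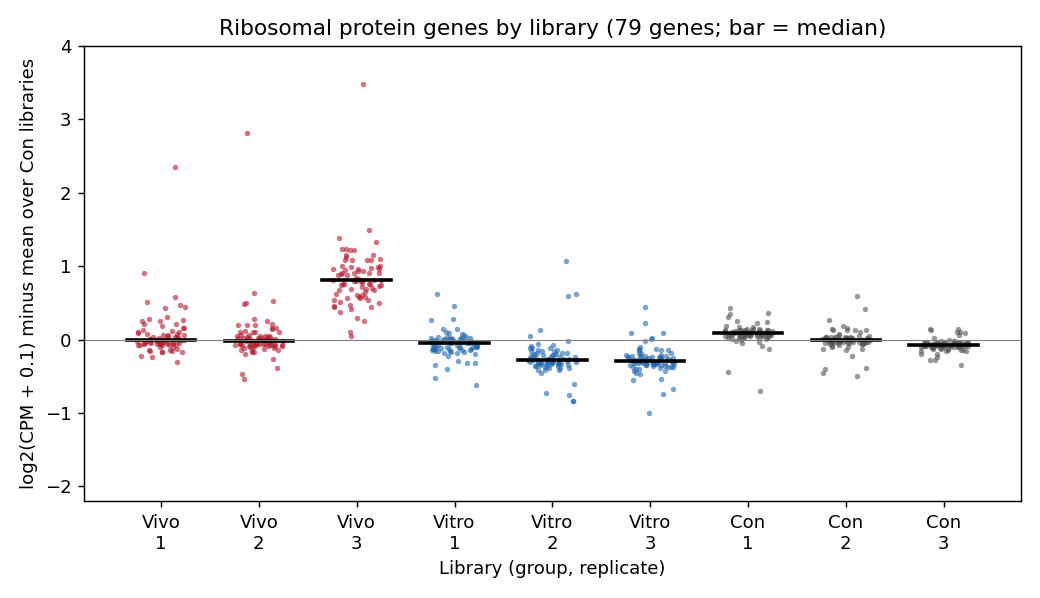
Each point is 1 of the 79 tested ribosomal protein genes, as log2(CPM + 0.1) minus its own mean over the Con libraries, in each of the 9 libraries, and bars are medians over genes. The median member sits about 0.81 above Con in Vivo replicate 3, near 0 in Vivo replicates 1 and 2, and slightly below 0 in Vitro replicates 2 and 3. The highest Vivo points are Rpl37.

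The excess in Vivo replicate 3 went with short genes. Over 12340 genes with a length implied by their counts and FPKM, the difference between Vivo replicate 3 and the mean of Vivo replicates 1 and 2 had a Spearman rho of -0.52 with length, given as a description across genes of 1 library. In libraries of Vitro and Con, the deviation from the rest of the group had a rho of -0.09 to 0.09. Genes under 500 bases were 0.82 higher in Vivo replicate 3 (log2 median of 201 genes), and genes over 4000 bases were 0.36 lower (median of -0.36 over 5140 genes). Members differed less by length: their median excess was 0.89 under 500 bases (17 members), 0.80 from 500 to 1000 (35 members) and 0.70 from 1000 to 2000 (18 members). In the last class all genes had a median of 0.43, below the median of the members of that length. Above 2000 bases only 8 members had a value, with medians of 0.76 and 0.80, and the implied lengths of some of these, such as 7428 bases for Rpl11 and 6805 for Rpl7, are far above what such small proteins need.

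Of the 79 tested members, 77 were higher in Vivo replicate 3 than in the mean of Vivo replicates 1 and 2, with a median difference of 0.81 and a range of -0.28 to 1.46. Rpl41 had 1675 CPM in Vivo replicate 3, against 685 and 689 CPM in Vivo replicates 1 and 2. Rplp0 had 3252 CPM in Vivo replicate 3, against 1659 and 1651 CPM in Vivo replicates 1 and 2. Not all members followed: the exceptions were Rpl7l1, a paralogue of Rpl7, with 57.6 CPM in replicate 3, and Rpl10l, a paralogue of Rpl10 that is known in mouse for its expression in testis, with 8.40 CPM. Vivo replicates 1 and 2 had 67.8 and 57.3 CPM of Rpl7l1, and 11.8 and 8.83 CPM of Rpl10l. Because this library decides the sign of many changes, counts of members are also given without it.

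**Figure D2:**
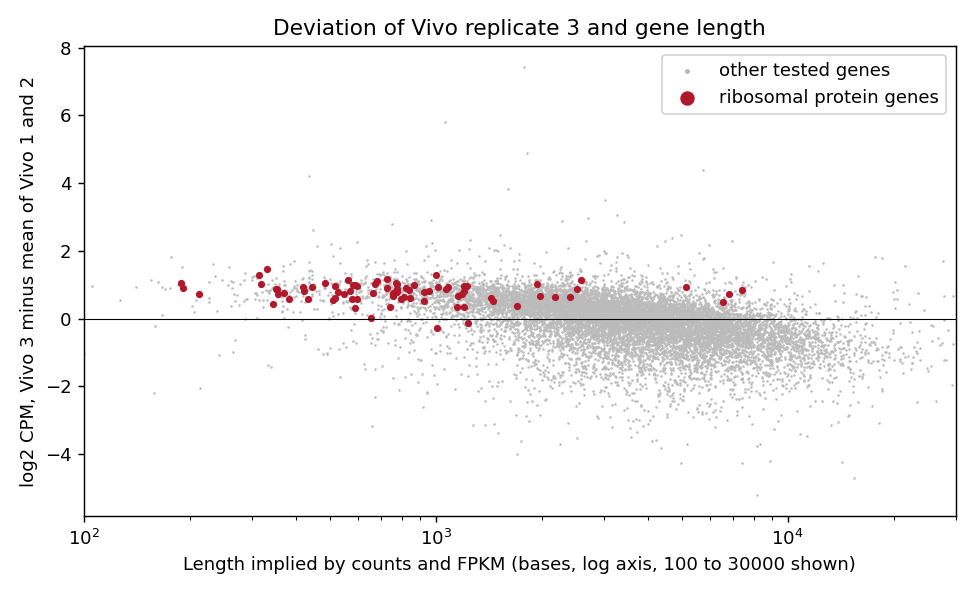
Each point is a tested gene, with the length implied by its counts and FPKM on a log axis and the log2 CPM of Vivo replicate 3 minus the mean of Vivo replicates 1 and 2. Medians of all genes fall with length from about 0.82 under 500 bases to -0.36 above 4000 bases. Red ribosomal protein genes have medians of 0.70 to 0.89 in the length classes, with few members above 2000 bases.

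Against Con, 3.8% of the tested ribosomal protein genes were called higher in Vivo cells, near the 5.17% of all genes. The median member was higher only with Vivo replicate 3 included. The paralogues Rpl22l1 and Rps27l rose 1.78-fold and 1.82-fold, and the very low Rpl37 row, described below, was called on few counts. By the quasi-likelihood test of edgeR, adjusted by Benjamini-Hochberg over 12364 genes at a threshold of 0.05, 3 of 79 members rose (3.8%) and 0 fell, where 5.17% of all tested genes rose and 4.56% fell (9.73% in either direction). One of the 3, Rpl37, entered the test only through its Vivo libraries and so had to differ, which leaves 2 of the other 78. The median log2 change was 0.33 over the tested members, all 79 of them positive, and 0.01 over all genes. Without Vivo replicate 3 the same 3 members were called, 33 of 79 were positive and the median was -0.03, with 6.46% of all genes called higher and 7.16% lower. Before adjustment 9 members (11.4%) had p under 0.05, all higher, against 27.4% of all genes (14.9% higher), and 7 (8.86%), 6 of them higher, without Vivo replicate 3, against 31.7%. In 14 members (17.7%) every Vivo library was above every Con library, against 17.3% of all genes, and in 0 every Vivo library was below, against 16.1%. With Vivo replicates 1 and 2 alone, 12 members (15.2%) were above every Con library and 19 (24.1%) below, against 25% and 26.4% of all genes.

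Rpl22l1 encodes a paralogue of the large subunit protein L22. It had 121, 126 and 189 CPM in Vivo libraries, against 87.6, 88.6 and 68.9 CPM in Con libraries. The groups did not overlap, and the log2 change was 0.83 ± 0.19 (SE; adjusted p = 0.0247, edgeR). Without Vivo replicate 3 it was 0.58 ± 0.12 (adjusted p = 0.0174, edgeR). The call was lost without Con replicate 1, without Con replicate 3 and in a fit of the 2 groups alone. L22 itself, read from the L22-like row together with 1 other copy, had 175, 181 and 265 CPM in Vivo libraries, against 194, 169 and 171 CPM in Con libraries, and these overlapped (adjusted p = 0.47, edgeR).

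Rps27l encodes a paralogue of the small subunit protein S27 and is known in human and mouse cells as a target of p53. It had 100.4, 100.9 and 184 CPM in Vivo libraries, against 64.6, 78.4 and 68.7 CPM in Con libraries. The groups did not overlap, and the log2 change was 0.86 ± 0.22 (adjusted p = 0.0406, edgeR), or 0.49 ± 0.10 without Vivo replicate 3 (adjusted p = 0.0174). Its partner Rps27 had 230.4, 258 and 405 CPM in Vivo libraries, against 322, 259.9 and 273 CPM in Con libraries, a log2 change of 0.06 ± 0.21. Vivo replicates 1 and 2 lay below all Con libraries for Rps27 and above all of them for Rps27l. The Rps27l call was the less stable of the pair of paralogues: it was lost when any 1 of the Con or Vitro libraries was left out, in the fit of the 2 groups alone and with the replicate number as a block.

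Rpl37 belongs to the large subunit, and nearly all counts of its protein fell in another row. It had 22, 31 and 48 counts in Vivo libraries, against 1, 5 and 3 in Con libraries, and it passed the filter on low counts through its Vivo libraries alone. The rate over the group was 11.5 times that of Con (exact 95% interval 5.82 to 25.8, counting error only). The L37-like row had 1402, 1297 and 2544 counts in Vivo libraries, against 1397, 1207 and 1209 in Con libraries. Rpl37 made up 1.54%, 2.33% and 1.85% of the sum of both in Vivo libraries and 0.0715%, 0.413% and 0.248% in Con libraries. With all copies of L37 added together the log2 change was 0.44 ± 0.25 (adjusted p = 0.287, edgeR), so the rise of the row is not a rise of the protein's total mRNA that passed the test. Reads from the mouse host could not be told apart from rat reads in the deposited counts.

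At the other end, Rpl23, Rps27 and Rps27a had the smallest log2 changes against Con. Rpl23, a large subunit protein, had 555, 543 and 682 CPM in Vivo libraries, against 626, 533 and 560.4 CPM in Con libraries (0.05 ± 0.14). Rps27a, made as a fusion of ubiquitin with the small subunit protein S27a, had 643, 631 and 808 CPM in Vivo libraries, against 699, 672 and 607 CPM in Con libraries (0.07 ± 0.19). Both groups overlapped for each gene. Rplp0 had 1659, 1651 and 3252 CPM in Vivo libraries, against 1975, 1860 and 1749 CPM in Con libraries. Rpsa had 1581, 1536 and 2582 CPM in Vivo libraries, against 1803, 1745 and 1623 CPM in Con libraries. For Rplp0 and Rpsa, Vivo replicates 1 and 2 were below every Con library and Vivo replicate 3 above all of them.

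Against Vitro, ribosomal protein genes stood higher in Vivo cells, also without Vivo replicate 3. The share of them called higher, 6.33%, was near the 5.38% of all genes. Relative to Con, the median member stood at -0.01 in both Vivo replicates 1 and 2, and at -0.05, -0.28 and -0.29 in Vitro replicates 1 to 3. Without Vivo replicate 3 the difference thus lay mainly in lower Vitro replicates 2 and 3, with Vivo near the Con level. Rpl22l1 and Rpl36 rose both with and without that library. By edgeR's quasi-likelihood test 5 of 79 members (6.33%) rose and 0 fell, where 5.38% of all genes rose and 5.52% fell (10.9% in either direction). Those called were Rpl22l1, Rpl37, Rpl36, Rps2 and Rps6, or 4 of 78 without Rpl37, which again was tested only through its Vivo libraries. The median log2 change was 0.53, against 0.02 over all genes, all 79 tested members were positive and 46 (58.2%) had p under 0.05 before adjustment, against 27.7% of all genes (14.6% higher). In 44 members (55.7%) every Vivo library was above every Vitro library, against 17.7% of all genes, and in 0 every Vivo library was below, against 17.5%. With Vivo replicates 1 and 2 alone, 41 members (51.9%) were above every Vitro library, against 23.5% of all genes, and 19 (24.1%) had p under 0.05, against 29.1% (13.1% higher). Without Vivo replicate 3, 78 of 79 members were still positive, the median was 0.18 against -0.0008157 over all genes, and 5 were called, where 5.86% of all genes were called higher and 7.39% lower. These 5 were Rpl36, Rpl22l1, Rpl10a, Rpl37 and Rpl3. All members share the same libraries, so the count of positive members is a description.

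Rpl36, a large subunit protein, had 327, 315 and 476 CPM in Vivo libraries, against 220.4, 237 and 221 CPM in Vitro libraries. Con libraries had 278, 278 and 267 CPM. The Vivo and Vitro libraries did not overlap, with a log2 change of 0.72 ± 0.16 (adjusted p = 0.0204, edgeR), or 0.49 ± 0.08 without Vivo replicate 3 (adjusted p = 0.00584). Rpl22l1 had 79.6, 75.3 and 69.6 CPM in Vitro libraries, all below the 121 to 189 CPM of the Vivo libraries, with a log2 change of 0.96 ± 0.19 (adjusted p = 0.0112, edgeR). Without Vivo replicate 3 its change was 0.71 ± 0.12 (adjusted p = 0.00655). Leaving out Vitro replicate 3 ended the Rpl22l1 call at an adjusted p of 0.0539, and leaving out any 1 Vitro library ended that of Rpl36.

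Rpl3, which lies at the peptidyl transferase centre, had 1383, 1333 and 2160 CPM in Vivo libraries, against 1125, 1017 and 978 CPM in Vitro libraries. Rpl10a, part of the L1 stalk where tRNA leaves the ribosome, had 529, 527 and 978 CPM in Vivo libraries, against 411, 398 and 376.5 CPM in Vitro libraries. Neither overlapped between the groups. Both missed the threshold with all libraries, at 0.64 ± 0.19 (adjusted p = 0.0564, edgeR) for Rpl3 and 0.78 ± 0.23 (adjusted p = 0.0553, edgeR) for Rpl10a. Both passed it without Vivo replicate 3, with smaller changes of 0.37 ± 0.10 (adjusted p = 0.0366) for Rpl3 and 0.40 ± 0.09 (adjusted p = 0.0225) for Rpl10a.

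Rps2, a small subunit protein at the entry of the mRNA channel, had 1374, 1375 and 1738 CPM in Vivo libraries, against 828, 1146 and 761 CPM in Vitro libraries. The groups did not overlap, and the log2 change was 0.71 ± 0.19 (adjusted p = 0.0438, edgeR). Without Vivo replicate 3 it was 0.58 ± 0.19 and no longer passed (adjusted p = 0.0763). Con libraries had 1407, 1396 and 1056 CPM, the last of which lay within the Vitro range.

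Rps6, the substrate of the S6 kinases, was listed at only 124, 102 and 152 counts in Vivo libraries and 75, 73 and 64 counts in Vitro libraries, or 6.74, 5.56 and 8.68 CPM in Vivo libraries against 4.37, 3.94 and 3.40 CPM in Vitro libraries. The log2 change was 0.84 ± 0.23 (adjusted p = 0.0438, edgeR), and 0.64 ± 0.21 without Vivo replicate 3 (adjusted p = 0.0788). Added to its copy row, the protein had 12.9, 10.3 and 21.6 CPM in Vivo libraries, against 11.3, 60.4 and 6.96 CPM in Vitro libraries. The call was then gone (adjusted p = 0.453, edgeR). Vitro replicate 2 alone held the high value. For Rpl37 the 22, 31 and 48 counts of the Vivo libraries against 5, 8 and 3 of the Vitro libraries gave a ratio of 6.38 (exact 95% interval 3.74 to 11.6, counting error only), and its summed copies again missed the threshold (adjusted p = 0.149).

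**Figure D3:**
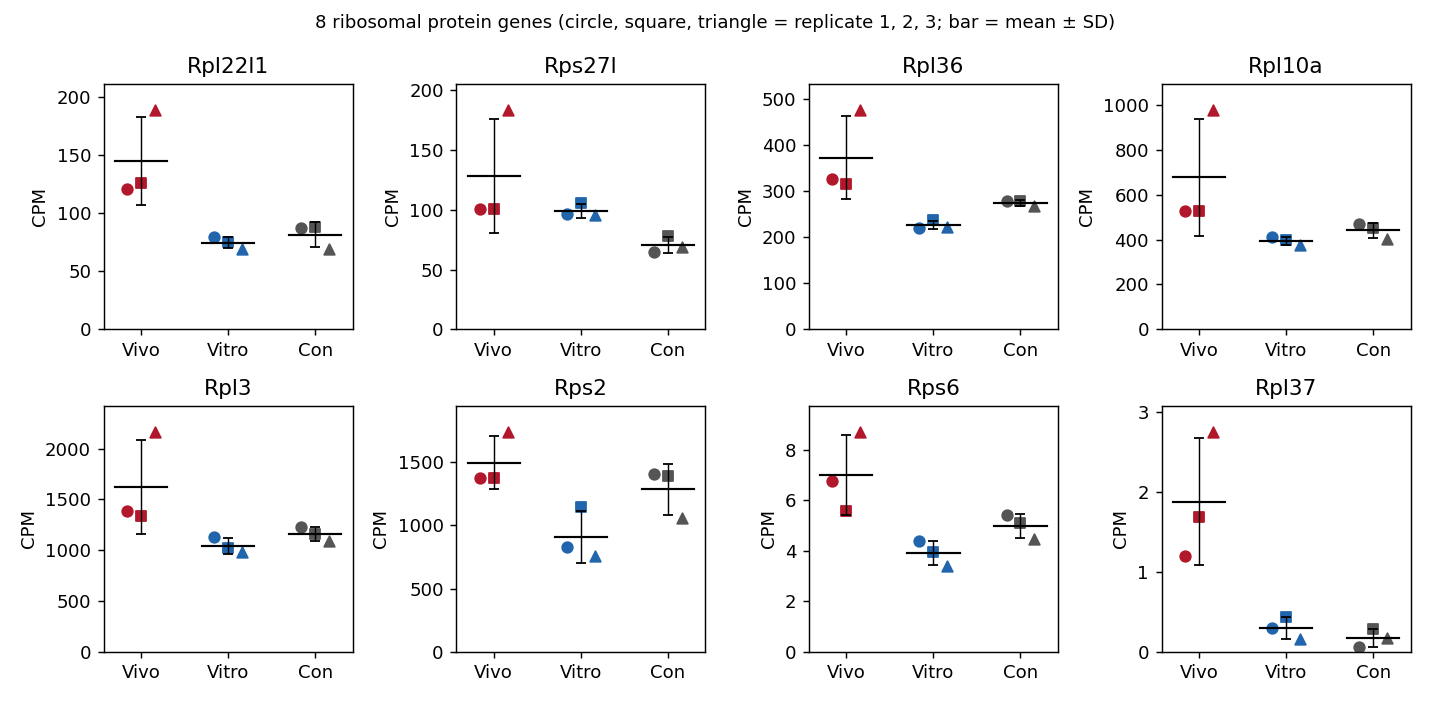
CPM of the 8 ribosomal protein genes called higher in Vivo cells in at least 1 comparison, with all libraries or without Vivo replicate 3, in Vivo, Vitro and Con libraries (circle, square and triangle for replicates 1, 2 and 3; bar and whisker for mean ± SD, n = 3). Vivo replicate 3 is the highest library in every panel, and Vivo replicates 1 and 2 also lie above the Vitro libraries in every panel but that of Rps27l.

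The smallest changes between Vivo and Vitro were those of Rpl7l1 (0.08 ± 0.13), Rps27a (0.24 ± 0.19) and Rpl23 (0.25 ± 0.14). Rpl7l1 had 67.8, 57.3 and 57.6 CPM in Vivo libraries, against 55.6, 57.5 and 59.5 CPM in Vitro libraries, which overlapped. The largest were those of Rpl37, Rpl39 and Rps29, all in rows of few counts. Rpl39, which lines the exit tunnel of the nascent protein, had 26, 27 and 73 counts in Vivo libraries, against 18, 14 and 24 in Vitro libraries (1.19 ± 0.49, adjusted p = 0.154, edgeR). Rps29, a small subunit protein, had 83, 83 and 162 counts in Vivo libraries, against 54, 65 and 45 in Vitro libraries (1.01 ± 0.32, adjusted p = 0.0763, edgeR). Rpl36al, a copy of Rpl36a that is itself expressed, had 60.8, 56.4 and 79.9 CPM in Vivo libraries and 50.1, 47.0 and 48.2 CPM in Vitro libraries; they did not overlap and the change was 0.44 ± 0.14 (adjusted p = 0.0817, edgeR).

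Between Vitro and Con, no member was called by edgeR's quasi-likelihood test, and members were on average slightly lower in Vitro cells. The 0 calls among 79 members stood beside 0.00809% of all genes called higher and 0.0243% called lower, 4 genes in all (0.0324%). Without Vivo replicate 3 the members again had 0 calls, beside 0.00798% of all genes called higher and 0.024% lower, while 32 members (40.5%), 1 of them higher, had p under 0.05 before adjustment, against 20.9% of all genes. With all libraries 1 member (1.27%), Rps2, had p under 0.05 before adjustment, against 11.4% of all genes. DESeq2 also called 0 members, among 299 genes in all, while limma voom with sample quality weights called 1 higher and 12 lower among 2690 genes. The median log2 change was -0.21 over the members, 74 of them negative, and -0.000998 over all genes. In 27 members (34.2%) every Vitro library was below every Con library, against 10.3% of all genes, and in 1 (1.27%) every Vitro library was above, against 11.1%. That 1 was Rps27l, with 96.3, 106.0 and 95.4 CPM in Vitro libraries and 64.6, 78.4 and 68.7 CPM in Con libraries (0.49 ± 0.22, adjusted p = 0.445, edgeR). Rps2 had 828, 1146 and 761 CPM in Vitro libraries, against 1407, 1396 and 1056 CPM in Con libraries, which overlapped (-0.50 ± 0.19, adjusted p = 0.373, edgeR).

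The changes at both ends between Vitro and Con lay mostly in rows of low counts. Rpl37 had the highest, 0.75 ± 0.68, on 5, 8 and 3 counts in Vitro libraries and 1, 5 and 3 in Con libraries. Rpl39 had 18, 14 and 24 counts in Vitro libraries, against 18, 34 and 25 in Con libraries (-0.51 ± 0.50). Rps29 had 54, 65 and 45 counts in Vitro libraries, against 67, 78 and 60 in Con libraries (-0.37 ± 0.33). Rps9, a small subunit protein whose row is also low, had 20.8, 35.6 and 21.2 CPM in Vitro libraries, against 25.5, 25.5 and 19.1 CPM in Con libraries (0.15 ± 0.32). All of these overlapped between the groups. Rpl10, by contrast a high row, had 855, 716 and 679 CPM in Vitro libraries, all below the 1025, 903 and 889 CPM of the Con libraries (-0.32 ± 0.24, adjusted p = 0.678, edgeR).

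Of 3 other paralogues known from muscle or testis, Rpl3l and Rpl39l stayed near the limit of detection and Rpl10l did not. Rpl3l, known from heart and skeletal muscle, had 3, 2 and 3 counts in Vivo libraries, 2, 1 and 0 in Vitro libraries and 0, 7 and 5 in Con libraries. Rpl39l, known in mouse from testis, had 1, 1 and 6 counts in Vivo libraries, 0, 1 and 15 in Vitro libraries and 0, 1 and 7 in Con libraries, so replicate 3 held most of its counts in each group. Where a row had 0 counts, a level of up to 3 counts is possible, or 0.163 to 0.172 CPM before scaling. Rpl10l had 11.8, 8.83 and 8.40 CPM in Vivo libraries, 7.51, 5.89 and 3.08 CPM in Vitro libraries and 8.02, 5.32 and 5.68 CPM in Con libraries. Its Vivo libraries lay above the others, with log2 changes of 0.82 ± 0.32 against Vitro (adjusted p = 0.135, edgeR) and 0.61 ± 0.32 against Con (adjusted p = 0.249, edgeR). Rpl10 had 12774 to 27724 counts per library, and whether some of its reads fell in the Rpl10l row was not tested.

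The 9 members that the filter on low counts left out were Rpl22l2, Rpl30l1, Rpl31l3, Rpl37a, Rpl39l, Rpl3l, Rplp2, Rps15al2 and Rps19l1. Rpl31l3 had no count in any library. Rps19l1, singled out after its values were seen, had 10, 7 and 20 counts in Vivo libraries, against 1, 0 and 0 in Vitro libraries and 0, 1 and 0 in Con libraries. The ratio of Vivo to Vitro was 37.4 (exact 95% interval 6.31 to 1516) and that of Vivo to Con 37.9 (6.39 to 1536), covering counting error only. A fit with no filter, which tested 87 members, called Rps19l1 higher in both comparisons. The same counts had picked it out, so neither these calls nor the intervals are separate support for a rise. The summed copies of S19 had 126, 137 and 238 CPM in Vivo libraries, against 154, 123 and 114 CPM in Vitro libraries and 161, 156 and 134 CPM in Con libraries. The sum overlapped between all 3 groups, and the other 8 members held 0 to 15 counts in every library.

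Some members had a similar pattern over the replicate numbers in each group, though none passed a test for replicate number. Rpl17, Rpl30 and Rps10l1 were low in replicate 2 of every group, at or under 0.8 of the lower of the other 2 libraries, a limit chosen after the values were seen and met by 61 of 12364 genes (0.493%). Rpl30, a large subunit protein, had 5180, 2912 and 6782 counts in Vivo libraries, 4300, 2273 and 3537 in Vitro libraries and 4921, 2600 and 3725 in Con libraries. Its L30-like row (LOC100362027) moved the other way, with 2395, 4457 and 6054 counts in Vivo libraries, 2002, 3674 and 2619 in Vitro libraries and 2265, 3902 and 2634 in Con libraries. Rpl30 therefore made up 39.5%, 38.2% and 40% of the sum in replicate 2 of Vivo, Vitro and Con, and 52.8% to 68.5% in the other 6 libraries. The sum had 412, 401.5 and 733 CPM in Vivo libraries, 367, 321 and 327 CPM in Vitro libraries and 408.5, 368.0 and 368 CPM in Con libraries. Replicate 2 was the lowest in each group, but much closer to the next library than for Rpl30 alone.

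Rps10 of the small subunit and its copy Rps10l1 showed the same in a milder form. Rps10 made up 89.7%, 90.8% and 89.3% of their sum in replicate 2 of Vivo, Vitro and Con, and 81.5% to 83.7% in the other 6 libraries. Rpl17, whose product lies at the exit tunnel, had 8172, 5626 and 15743 counts in Vivo libraries, 8008, 4740 and 7277 in Vitro libraries and 8877, 5679 and 8074 in Con libraries. No copy row of Rpl17 was found, so a shift of its reads to a copy could not be looked for. Rps27a shared its counts with Rps27a-ps1 in another proportion in 1 library, at 64.0% of the sum in Vitro replicate 2 and 76.8% to 88.7% in the other 8. None of the 79 members was called for replicate number in a fit with group (2 of 12364 genes were), and 4 members had p under 0.05 before adjustment (5.06%, against 4.83% of all genes). The labels do not say what the replicate numbers stand for.

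**Figure D4:**
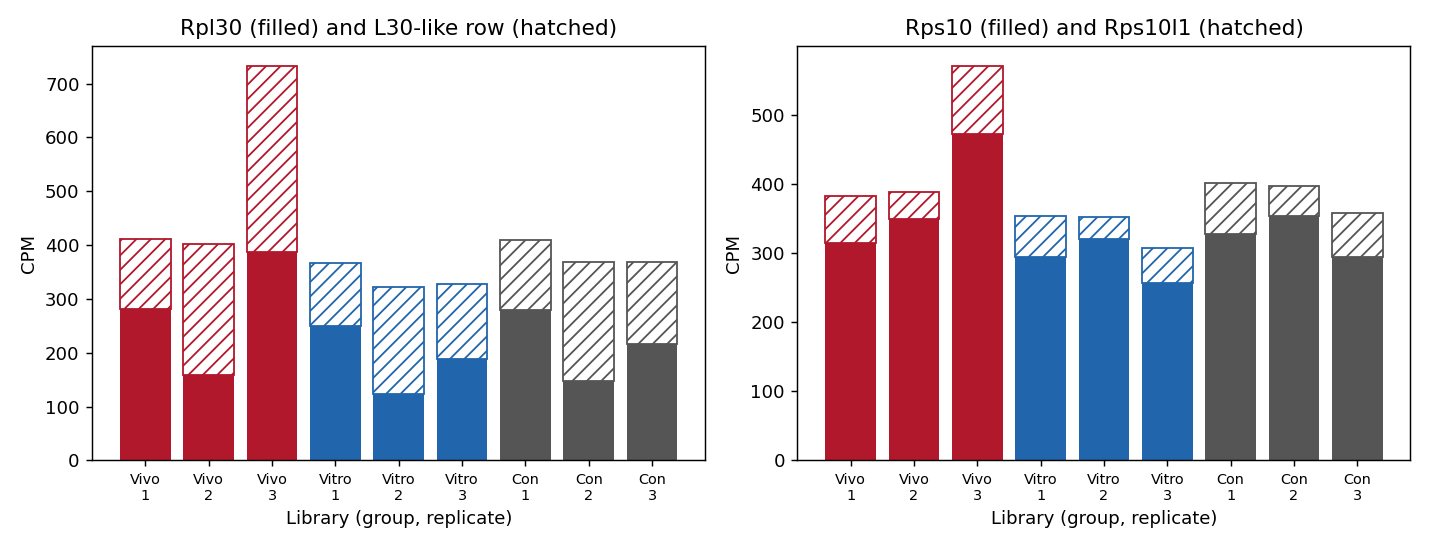
CPM of Rpl30 with its L30-like row (left) and of Rps10 with Rps10l1 (right), stacked, in each library of Vivo, Vitro and Con. The filled part of Rpl30 is smallest in replicate 2 of every group, at 38.2% to 40% of the bar, while the whole bar changes little except in Vivo replicate 3.

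Genes that work with the ribosomal proteins were read from fixed lists. Of all tested genes, 5.17% were called higher and 4.56% lower against Con, and 5.38% and 5.52% against Vitro. Without Vivo replicate 3 these shares were 6.46% and 7.16% against Con, and 5.86% and 7.39% against Vitro. Of 22 tested translation factors and other genes whose mRNAs carry the TOP motif, 3 (13.6%) rose against Con and 0 fell. Against Vitro 2 (9.09%) rose and 0 fell. In the fit without Vivo replicate 3, 3 rose and 1 fell against Con (the fall was that of Vim, a structural protein of mesenchymal cells) and 3 rose against Vitro. Npm1, a nucleolar chaperone, averaged 939.5 ± 72.6 CPM in Vivo libraries, 651 ± 80.3 in Vitro libraries and 599.9 ± 18.5 in Con libraries (SD, n = 3 each) and was called in both, with log2 changes of 0.53 ± 0.13 against Vitro (adjusted p = 0.0315, edgeR) and 0.65 ± 0.13 against Con (adjusted p = 0.0179). Pabpc1, the poly(A)-binding protein, rose against Vitro (0.53 ± 0.12, adjusted p = 0.0232), and Hnrnpa1 and Nap1l1 rose against Con. The list's median log2 change was 0.27 against Con and 0.39 against Vitro, and -0.01 and 0.13 without Vivo replicate 3. The ribosome-bound scaffold Rack1, listed as Gnb2l1, had 1083, 1090.0 and 1853 CPM in Vivo libraries, 1071, 911 and 884.5 CPM in Vitro libraries and 1238, 1147 and 1055 CPM in Con libraries, like the members themselves. Eef1a1, a long-known TOP gene, did not follow: it had 4980, 5728 and 6126 CPM in Vivo libraries, 5626, 5212 and 4541 CPM in Vitro libraries and 6685, 6782 and 5868 CPM in Con libraries. Fau, whose product is processed to S30, had 1 to 22 counts per library and was not tested.

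The median of the genes that build ribosomes moved less with Vivo replicate 3, although single calls did depend on it. Of 44 ribosome biogenesis genes, 5 (11.4%) rose against Con (Polr1e, Fbl, Nop2, Rrp9 and Tcof1), beside 5.17% of all genes. Against Vitro 3 (6.82%) rose (Polr1e, Rrp9 and Fbl), near the 5.38% of all genes, and 0 fell in either comparison. With that library left out, 7 rose against Con and 5 against Vitro, 0 fell, and the calls of Rrp9 (adjusted p = 0.0601 against Con and 0.052 against Vitro), Nop2 against Con (0.0602) and Fbl against Vitro (0.0791) were lost. Polr1e, a subunit of RNA polymerase I, averaged 22.1 ± 4.98 CPM in Vivo libraries, 11.2 ± 1.04 in Vitro libraries and 12.01 ± 0.0892 in Con libraries, with log2 changes of 0.97 ± 0.18 against Vitro (adjusted p = 0.00848, edgeR) and 0.88 ± 0.18 against Con (adjusted p = 0.0177). Fbl, the rRNA methyltransferase fibrillarin, averaged 74.6 ± 15.4 CPM in Vivo libraries, 44.1 ± 9.03 in Vitro libraries and 38.0 ± 6.06 in Con libraries, with log2 changes of 0.76 ± 0.20 against Vitro (adjusted p = 0.0421) and 0.97 ± 0.21 against Con (adjusted p = 0.0205). The median of the list was 0.34 against Con and 0.31 against Vitro, and 0.32 and 0.25 without Vivo replicate 3, so it changed little where the median of the ribosomal proteins changed sign or fell to about 0.18. The median deviation of these genes in Vivo replicate 3 was -0.004167, against 0.81 for the members. They were also longer, with a median implied length of 3095 bases against 762 for the members. All genes of 2000 to 4000 bases had a median deviation of 0.13. The part of length in this contrast was not tested.

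Among 23 genes of growth control, only Myc, a transcription factor that promotes ribosome synthesis, was called with all libraries (4.35% of the list). It averaged 174.5 ± 47.1 CPM in Vivo libraries, 55.9 ± 5.94 in Vitro libraries and 85.0 ± 6.03 in Con libraries, with log2 changes of 1.64 ± 0.19 against Vitro (adjusted p = 7.6e-04, edgeR) and 1.04 ± 0.18 against Con (adjusted p = 0.00968). With Vivo replicate 3 left out, 2 rose and 2 fell against Con, and 2 rose and 1 fell against Vitro, with Myc called in both. Of 11 genes of ribosome rescue and ribosomal stress, 0 were called against Con by edgeR, and 1, Abce1, without Vivo replicate 3. With all libraries 4 had p under 0.05 against Con before adjustment, beside 27.4% of all genes. Against Vitro the same 2 fell with and without that library: Cdkn1a, a cell cycle inhibitor, at 62.6 ± 12.1 CPM in Vivo libraries and 136 ± 9.91 in Vitro libraries (-1.12 ± 0.18, adjusted p = 0.00382), and Mdm2, which binds several ribosomal proteins and restrains p53, at 66.7 ± 5.48 CPM in Vivo libraries and 111.7 ± 15.4 in Vitro libraries (-0.75 ± 0.15, adjusted p = 0.0113). Both are textbook p53 targets, as is Rps27l, which was not called against Vitro (0.37 ± 0.22, adjusted p = 0.307, edgeR). Without Vivo replicate 3 the Rps27l change was 0.0048 ± 0.10. Against Con, Cdkn1a (-0.22 ± 0.18) and Mdm2 (-0.11 ± 0.15) were not called, while Rps27l was called higher. Between Vitro and Con, Cdkn1a, Mdm2 and Rps27l stood higher in Vitro, at 0.90, 0.63 and 0.49, and none was called.

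The members were set beside 2 other groups of mostly short mRNAs. Of 71 mitochondrial ribosomal protein genes, whose products form the separate ribosome of mitochondria, 2 (2.82%) rose against Con (Mrps34 and Mrpl12). Against Vitro 1 (1.41%) rose (Mrps34), and 0 fell in either comparison. Both shares lay below the 5.17% and 5.38% of all genes. From Vivo replicates 1 and 2 alone, 1 rose and 2 fell against Con, and 1 rose against Vitro. Their median was 0.34 against Con and 0.31 against Vitro, and 0.11 and 0.06 without Vivo replicate 3. Of 27 short nuclear genes of the respiratory chain, 0 were called against Con or Vitro by edgeR. In each comparison 1 had p under 0.05, beside 27.4% of all genes against Con and 27.7% against Vitro. Without Vivo replicate 3 only Uqcrq of these genes was called, lower against Con. Their median was 0.27 against Con and 0.31 against Vitro, and -0.13 and -0.08 without Vivo replicate 3, while their median deviation in that library was 0.87, close to that of the ribosomal proteins. Correcting every library for its trend with transcript length by offsets brought the median of the ribosomal proteins to 0.08 against Con and 0.24 against Vitro, and limma voom with sample quality weights gave 0.03 and 0.28. Between Vitro and Con, edgeR called 0 genes of any of these lists, with 0 to 3 at p under 0.05 in each. Of all genes 0.0324% were called there and 11.4% had p under 0.05.

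**Figure D5:**
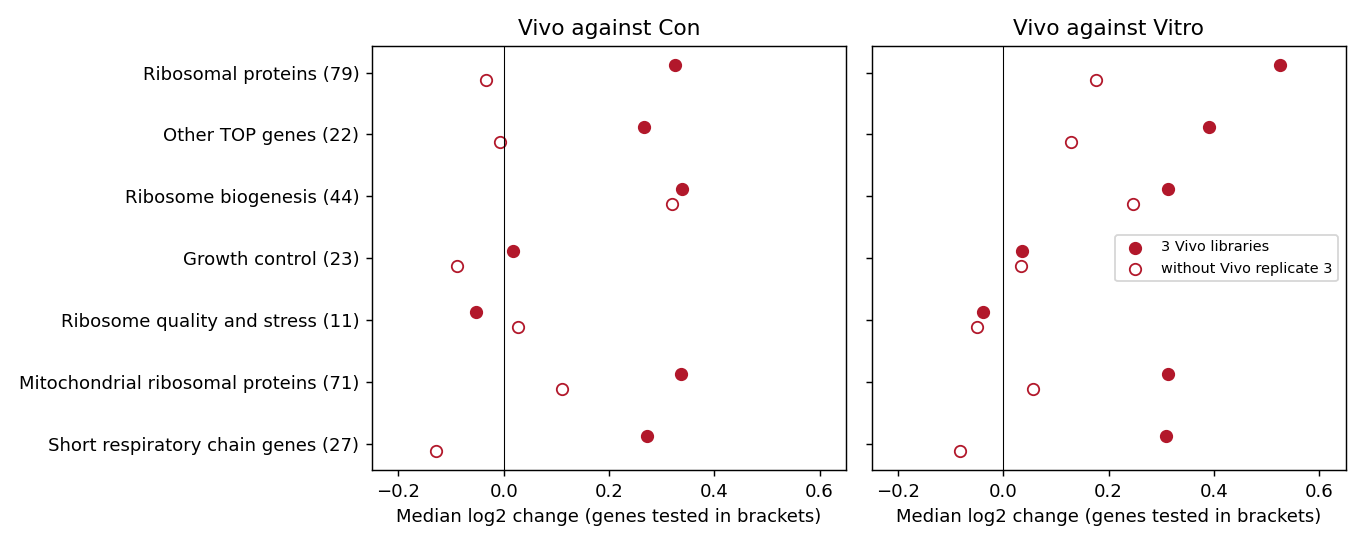
Median log2 change of each gene list for Vivo against Con (left) and Vivo against Vitro (right), with all 3 Vivo libraries (filled) and without Vivo replicate 3 (open), and the number of genes tested in brackets. Medians of the ribosomal proteins, other TOP genes and respiratory chain genes fall towards or below 0 without that library, while that of ribosome biogenesis stays at 0.32 and 0.25.

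The labelled cell type was checked against markers. All 10 stromal markers had counts, with sums of 35230 to 38190 CPM in Vivo libraries, 26230 to 42750 CPM in Vitro libraries and 40050 to 45810 CPM in Con libraries. Col1a1 alone made up most of each sum, with 25936 to 26439 CPM in Vivo, 21464 to 34768 in Vitro and 34155 to 37553 in Con libraries. Of the 10 markers, edgeR called 3 higher and 0 lower in Vivo against Vitro, and 0 against Con. The 11 leukocyte markers summed to 5.50 to 8.28 CPM in Vivo libraries, 2.33 to 4.94 CPM in Vitro libraries and 2.90 to 3.62 CPM in Con libraries, with Cd3e at 0 throughout and Vivo replicate 3 the highest. The 8 endothelial markers summed to 31.2 to 45.2 CPM in Vivo libraries, 26.6 to 45.8 CPM in Vitro libraries and 17.7 to 20.3 CPM in Con libraries. Within that sum Kdr, a receptor of vascular endothelial growth factor, rose to 12.2, 17.5 and 14.6 CPM in Vivo libraries, against 0.679 to 1.54 CPM in Vitro and Con libraries (adjusted p = 1.8e-04 against Vitro and 2.3e-04 against Con, edgeR). Flt1, another such receptor, fell to 12.8, 16.2 and 8.68 CPM in Vivo libraries, against 20.5, 36.4 and 28.5 CPM in Vitro libraries (adjusted p = 0.0343, edgeR), and Cdh5 and Emcn were under 1 CPM in all libraries. The 7 adipocyte markers summed to 0.817 to 1.94 CPM in Vivo libraries, 1.33 to 2.27 CPM in Vitro libraries and 2.60 to 5.97 CPM in Con libraries. Of the 4 erythroid markers in the table, Alas2, Hba-a2 and Hbb were at 0. The part of leukocyte, endothelial or host RNA in the changes above was not tested, and in bulk samples fewer cells of a type and less RNA per cell cannot be told apart.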

How the data were processed

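Per the labels' protocols, Trizol RNA was used to prepare libraries with a stranded mRNA kit. Reads were aligned with HISAT2 to Rnor_6.0, per the submitters' processing notes. Overlapping and antisense genes and near-identical copies are uncertain, as the sources used here give neither the counter nor its strand setting, nor the tool behind the FPKM. The deposited table gives raw whole-number counts per gene and an FPKM made by the authors for 9 libraries. Implied length is the ratio of counts to FPKM, scaled by the library total.

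The analysis used edgeR 4.0.16 under R 4.3.3. After filterByExpr, which kept 12364 genes, and TMM scaling, 1 quasi-likelihood fit of 3 groups (6 residual df) was tested for each pair, two-sided, with Benjamini-Hochberg adjustment over all genes. The common biological coefficient of variation was 0.231. Members, lists and tests were chosen with earlier results of these data known. The text names called members above 5 CPM, the 3 highest and 3 lowest changes per comparison, fixed paralogues and stalk proteins, and members at both ends of the FPKM order. Intervals and the floor of 3 counts cover counting error only. The fit was tested on simulated data. Alternatives were size factors of DESeq2, library totals alone, 2 other filters, DESeq2 1.42.0 and limma 3.58.1 (voom with sample quality weights, or log2(FPKM + 1)). Others were gene length offsets, the replicate block, 2 groups alone and each library left out. Summing the copy rows was an alternative chosen after seeing the data. Plots used matplotlib 3.10.9 (Python 3.11.15). Promoter sequences are from RefSeq (GRCr8).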

Additional observations from a re-analysis of the deposited data

How the results depend on the processing

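Members called against Con numbered 3, with 8 by limma voom with sample quality weights, 1 in the fit of 2 groups alone and 0 to 3 with each library left out (0 without Con replicate 3, 1 without Con replicate 1). Against Vitro they numbered 5, with 13 by DESeq2, 21 by voom with weights, 3 by limma on log2(FPKM + 1), 3 with the replicate block, 2 in the fit of 2 groups alone, 3 with copies summed and 0 to 6 with each library left out (0 without Vitro replicate 3, 1 without Vitro replicate 1). Between Vitro and Con they numbered 0, with 13 by voom with weights. The median change against Con reversed to -0.03315 without Vivo replicate 3, within a leave-one-out range of -0.03 to 0.48. That of Vitro against Con ranged from -0.30 to -0.17 and moved without Vitro replicate 1. The median against Vitro stayed positive, at 0.18 to 0.68. The cause of these moves was not tested. Rps2 and Rps6 lost their calls under 12 and 13 of 20 alternatives, Rps27l under 8, Rpl36 under 6, and Rpl22l1 against Con under 3. Whether replicate numbers pair the libraries is unsettled: the labels do not say so, and same-numbered libraries had correlations of -0.01 to 0.36 of their deviations, but 7 of 9 libraries correlated best with their own number, a hint from the data alone. The replicate block left 2 calls against Con, 3 against Vitro and 0 between Vitro and Con, without those of Rps27l, Rps2 and Rps6. Depth limits chiefly the rows of few counts, among them Rpl37, Rpl39, Rps29 and Rps6.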
